A study of Mus musculus with 18 samples.

Results

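Integrin subunits of mesenchymal cells were examined at the mRNA level in mouse embryonic fibroblasts (MEFs) from C57BL/6 embryos in which the RNA-binding protein IMP2, encoded by Igf2bp2, was knocked down. The group was chosen by gene symbol and holds 10 of the 48709 genes in the deposited count table: the alpha chains Itga1, Itga3, Itga5, Itga7, Itga8, Itga11 and Itgav, and the beta chains Itgb1, Itgb3 and Itgb5. All 10 passed the filter on low counts, as did 13702 genes in all. The 4 RNA-seq groups of 3 libraries each were Imp2 siRNA cells stimulated for 8 h with the cytokine interleukin-17 (IL-17) at 200 ng/mL, cells labelled Mock given the same IL-17, Imp2 siRNA cells without IL-17, and Mock cells without IL-17. The design text calls the comparator a control siRNA where the labels say Mock, and in every group the medium was changed 24 h after transfection. A separate RNA immunoprecipitation experiment (RIP-seq) compared 3 anti-IMP2 precipitations with 3 rabbit IgG precipitations, all from MEFs given 200 ng/mL IL-17 for 3 h. Nothing in the labels says whether libraries of a group came from separate cultures, so p-values measure the spread between libraries, which may be technical.

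Integrins are heterodimeric adhesion receptors in which 1 alpha and 1 beta chain together bind extracellular matrix outside the cell and, through the beta chain's tail, talin, kindlin and actin inside it. The beta-1 chain pairs with most of the alpha chains considered here. In fibroblasts, alpha-1/beta-1 and alpha-11/beta-1 bind collagens, alpha-5/beta-1 binds fibronectin, alpha-8/beta-1 binds nephronectin and other proteins with an RGD motif, alpha-v pairs with several beta chains to bind vitronectin and other RGD proteins, and alpha-3/beta-1 and alpha-7/beta-1 bind laminins. IL-17 is an inflammatory cytokine that acts on fibroblasts, and IMP2 binds mRNAs and affects their stability and translation.

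Promoter sequence is shown for the 5 genes that were higher with Imp2 siRNA and that had an entry in the RefSeq promoter table (GRCm38.p6), so that the upstream sequences of the genes that moved together can be compared. Each line gives the 250 bases before the RefSeq start, read 5′ to 3′ on the gene's own strand, and capitals mark matches to the motifs named after them. The windows are chr13:115101965-115102214 (minus strand) for Itga1, chr9:62677605-62677854 (plus strand) for Itga11, chr15:103366792-103367041 (minus strand) for Itga5, chr2:12301945-12302194 (minus strand) for Itga8 and chr8:128685404-128685653 (plus strand) for Itgb1.
Itga1: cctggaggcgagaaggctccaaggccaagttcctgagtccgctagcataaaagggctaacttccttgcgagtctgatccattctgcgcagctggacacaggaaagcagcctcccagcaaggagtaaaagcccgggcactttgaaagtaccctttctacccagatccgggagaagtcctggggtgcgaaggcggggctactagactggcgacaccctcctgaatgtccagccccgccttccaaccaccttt
Itga11: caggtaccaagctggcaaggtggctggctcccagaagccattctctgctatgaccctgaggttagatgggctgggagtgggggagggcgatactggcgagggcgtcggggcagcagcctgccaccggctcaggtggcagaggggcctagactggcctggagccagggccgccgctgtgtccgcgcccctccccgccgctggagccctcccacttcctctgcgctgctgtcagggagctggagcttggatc
Itga5: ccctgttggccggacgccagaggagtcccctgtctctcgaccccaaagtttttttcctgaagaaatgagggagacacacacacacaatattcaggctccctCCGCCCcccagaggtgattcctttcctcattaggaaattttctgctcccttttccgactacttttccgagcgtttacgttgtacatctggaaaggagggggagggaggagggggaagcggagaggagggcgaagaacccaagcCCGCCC
Itga8: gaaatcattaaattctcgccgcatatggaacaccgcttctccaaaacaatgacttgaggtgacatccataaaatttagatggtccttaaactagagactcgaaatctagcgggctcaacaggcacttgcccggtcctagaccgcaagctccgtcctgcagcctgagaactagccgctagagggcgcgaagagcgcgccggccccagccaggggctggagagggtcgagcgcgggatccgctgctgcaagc
Itgb1: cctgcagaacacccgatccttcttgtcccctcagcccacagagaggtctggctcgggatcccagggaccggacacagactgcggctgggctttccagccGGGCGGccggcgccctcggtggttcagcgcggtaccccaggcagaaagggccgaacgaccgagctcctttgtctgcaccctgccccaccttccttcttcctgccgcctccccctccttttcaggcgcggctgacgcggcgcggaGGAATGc
The motifs searched on both strands were AP-1 (TGANTCA), TEAD (CATTCC), the GC box (GGGCGG), the TATA box (TATAAA) and the CArG box, which were chosen with results of these data in view. The Itga5 window held 2 GC boxes, both on the opposite strand and so printed as CCGCCC. In the Itgb1 window there was 1 GC box and, next to the start, 1 TEAD match on the opposite strand, printed as GGAATG. None of the motifs was found in the Itga1, Itga8 or Itga11 windows, nor in that of Itgav. Of the other genes that did not pass the test, Itgb5 held 3 GC boxes, and the 2 entries of Itga3 held 1 and 3. Among all 32841 windows of this table, 32.7% held a GC box, 12.6% a TEAD match, 12.4% a TATA box, 6.75% an AP-1 match and 1.47% a CArG box. GC content was 57.6% for Itga1, 55.6% for Itga5, 56.4% for Itga8, 68.4% for Itga11 and 68.0% for Itgb1, beside a median of 52.4% over all windows. For genes that did not pass the test it was 64.4% (Itgav), 65.2% (Itgb5), and 50.8% and 67.6% (the entries of Itga3), so high GC content did not set apart the genes that rose. Entries were also found for Itga3, Itgav and Itgb5, which makes 8 of the 10 genes. In the coordinates of the deposited table (mm10), Itga5 spans chr15:103344289-103366763, Itgb1 chr8:128685654-128733200, Itga1 chr13:114958079-115101964, Itga11 chr9:62677826-62783982 and Itga8 chr2:12106632-12301922. Itgav lies on the same chromosome as Itga8, at chr2:83724397-83806916, Itga3 and Itgb3 share another, at chr11:95044474-95076801 and chr11:104608000-104670476, and Itga7 and Itgb5 span chr10:128933813-128958277 and chr16:33829665-33949153.

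The 12 RNA-seq libraries held between 33841054 and 44433699 counts. Library titles begin with RB160 or NA, and each group held 1 RB160 library and 2 NA libraries. The meaning of the prefix was not stated. The first principal component, with 62.1% of the variance, separated the prefixes, and 9494 of 13702 genes (69.3%) differed between them. For this reason the prefix was a term in every fit, and values below are given in the order RB160, NA, NA. Libraries of 1 group and prefix differed by more than sampling noise (reduced chi-square 9.11 to 16.9), so none was counted as a duplicate. Levels are CPM, each count relative to its library total after TMM scaling, and they are compared between groups for the same gene, never between genes, because transcript lengths were not used here. Fold changes are log2 values with their standard error (SE), and the p-values of edgeR's quasi-likelihood test were adjusted over 13702 genes by the Benjamini-Hochberg method, with a threshold of 0.05.

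The target of the knockdown was measured first. Igf2bp2 had 24.6, 22.3 and 18.6 CPM with Imp2 siRNA, against 134, 167 and 146 CPM in Mock cells, and its log2 fold change was -2.77 (adjusted p = 2.71e-06, SE 0.165). With IL-17 it had 28.2, 24.3 and 18.4 CPM with Imp2 siRNA, against 139, 166 and 156 CPM in Mock cells, a log2 fold change of -2.70 (adjusted p = 3.01e-06, SE 0.164). All 6 knockdown libraries lay below all 6 Mock libraries.

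The first comparison asks how the integrin subunits differed after knockdown of Imp2. Of the 10 subunits, 6 rose and 0 fell with Imp2 siRNA, and the other 4 did not pass the test. Those that rose were the collagen-binding chains Itga1 and Itga11, the fibronectin-binding chain Itga5, the RGD-binding chain Itga8, the laminin-binding chain Itga7 and the shared partner Itgb1. Of all genes tested, 32.4% passed the threshold in this comparison and 16.1% passed it upward. The median log2 fold change of the 10 subunits was 0.51, beside -0.000356 over all genes tested. In the cells given IL-17, where the libraries are different ones, the same 6 subunits rose and 0 fell, with a median of 0.52 beside -0.00671 over all genes. There 33.3% of genes passed the threshold and 16.7% passed it upward. Without the prefix term the count was 1 (Itga7) without IL-17 and 2 (Itga7 and Itga11) with it. There 2.21% and 2.32% of all genes passed. In that fit the spread between prefixes is part of the error, but the cause of each lost call was not tested. Without IL-17 the SE of Itga5 was 0.62 there, beside 0.083 with the prefix term. That of Itga11 was 0.14 beside 0.13, at an edgeR adjusted p of 0.0522 without the term. A fit with a separate mean for each group and prefix was added after the data were seen. Each RB160 mean rests there on 1 library. In it the log2 fold change of Itgb3 was -0.20 in each state. That value averages over opposite directions: the log2 ratio was 0.45 and 0.49 within RB160 libraries, and -0.53 and -0.54 within NA libraries. Itga3 was at 0.24 without IL-17, and Itgav and Itgb5 were at 0.19 and 0.16 with it. The calls of this fit are given with the other alternatives below. All values here are bulk RNA values, in which a change in the share of a cell type and a change in the RNA per cell cannot be told apart.

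**Figure D1:**
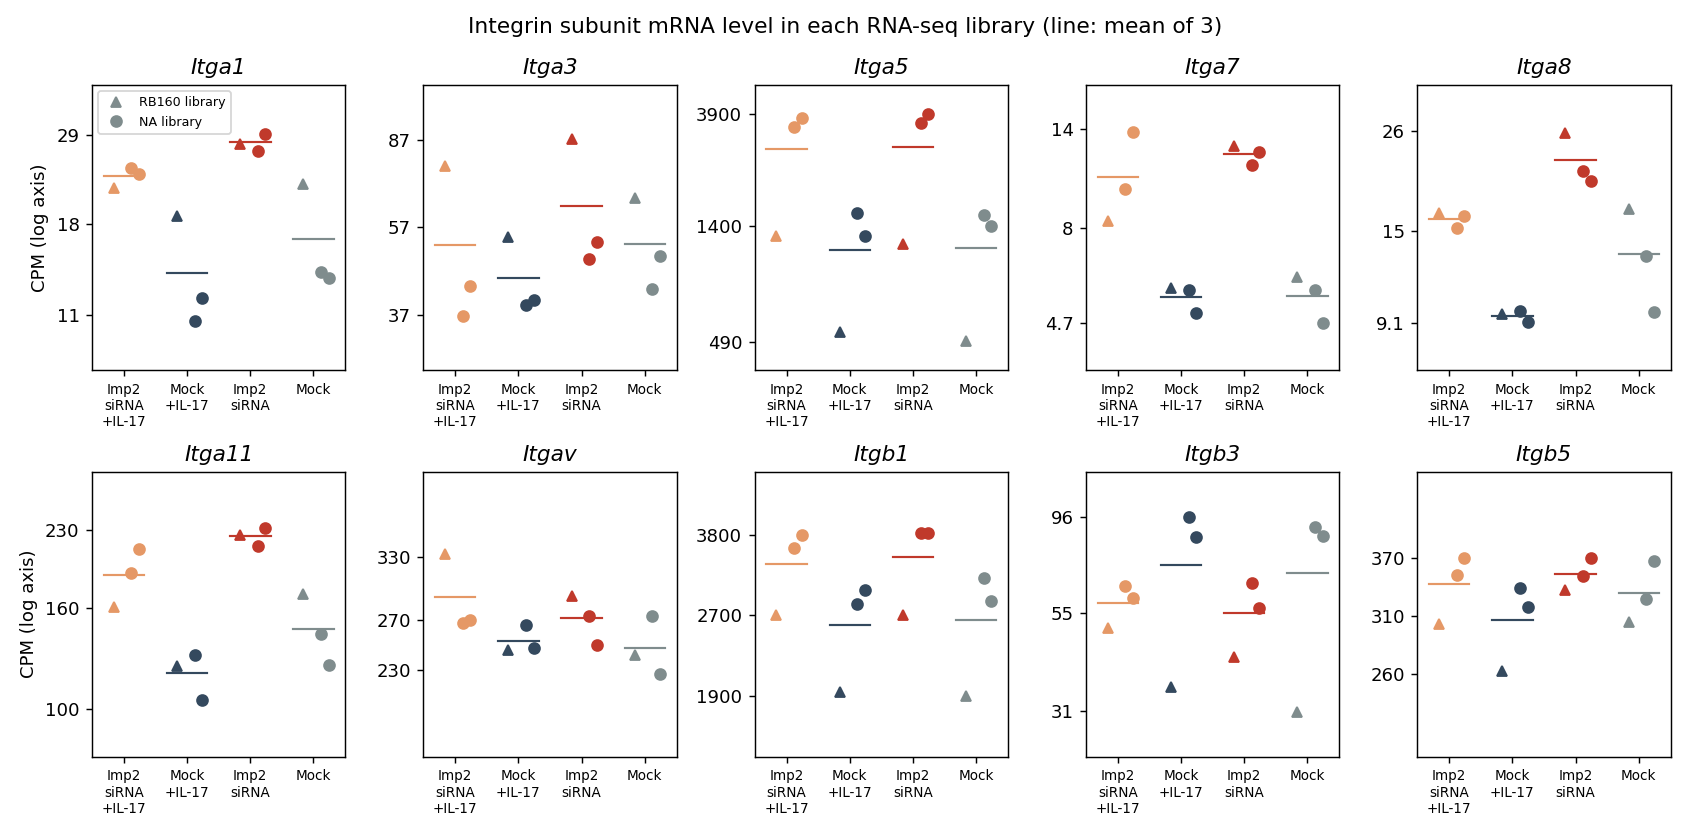
Level of each of the 10 integrin subunits in the 12 RNA-seq libraries, in CPM on a log axis with its own range for each gene; triangles are RB160 libraries, circles NA libraries, and lines the mean of 3 libraries. Itga1, Itga7, Itga8 and Itga11 lie higher in all Imp2 siRNA libraries than in all Mock libraries of the same IL-17 state, while Itga5 and Itgb1 are set apart by prefix first and by siRNA within each prefix.

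Itga5, the alpha chain of the main fibronectin receptor, changed most among the 10. It had 1198, 3586 and 3909 CPM with Imp2 siRNA, against 492, 1551 and 1405 CPM in Mock cells. Each knockdown library exceeded every Mock library of its own prefix, although the RB160 knockdown library lay below both NA Mock libraries. The log2 fold change was 1.32 (adjusted p = 1.21e-07, SE 0.0828), which is 2.50-fold, and 1.26% of the genes tested had a larger rise. With IL-17 the levels were 1279, 3459 and 3753 CPM with Imp2 siRNA, against 534, 1585 and 1277 CPM in Mock cells. The log2 fold change there was 1.31 (adjusted p = 1.14e-07, SE 0.0828), which is 2.48-fold. Within the RB160 libraries the log2 ratio of CPM was 1.28 without and 1.26 with IL-17, and within the NA libraries it was 1.34 in both.

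Itgb1, the beta chain that partners alpha-5, rose less. It had 2701, 3832 and 3846 CPM with Imp2 siRNA, against 1903, 3157 and 2861 CPM in Mock cells. Again the groups overlapped across prefixes but not within them. Its log2 fold change was 0.40 (adjusted p = 2.67e-04, SE 0.0632) without IL-17 and 0.39 (adjusted p = 3.30e-04, SE 0.0632) with it, or 1.32-fold and 1.31-fold. With IL-17 it had 2693, 3593 and 3804 CPM with Imp2 siRNA and 1931, 2822 and 3007 CPM in Mock cells. The count of Itga5 relative to Itgb1 in the same library shows how unequally the 2 chains of the fibronectin receptor changed. The log2 ratio of Itga5 to Itgb1 counts was -1.17, -0.096 and 0.023 with Imp2 siRNA, against -1.95, -1.03 and -1.03 in Mock cells. With IL-17 it was -1.07, -0.055 and -0.020 with Imp2 siRNA, against -1.85, -0.83 and -1.24 in Mock cells. In each prefix the ratio was higher in every knockdown library than in every Mock library. Because transcript lengths were not used, this ratio does not compare the amounts of the chains, only the change in their balance.

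Both collagen-binding alpha chains among the subunits chosen here, Itga1 and Itga11, rose. That set leaves out Itga2, one of the remaining integrin genes described below, which was not called in either state. Without IL-17 its NA libraries had 6.23 and 4.14 CPM with Imp2 siRNA, against 11.6 and 9.14 CPM in Mock cells. Its RB160 libraries went the other way, at 3.52 CPM with Imp2 siRNA and 2.69 CPM in Mock cells. Itga1 had 27.8, 26.7 and 29.3 CPM with Imp2 siRNA, against 22.4, 13.9 and 13.4 CPM in Mock cells, so that the groups did not overlap. The log2 fold change of Itga1 was 0.78 (adjusted p = 0.00773, SE 0.180) without IL-17 and 0.78 (adjusted p = 0.00853, SE 0.182) with it. With IL-17 it had 21.9, 24.3 and 23.6 CPM with Imp2 siRNA and 18.8, 10.6 and 12.1 CPM in Mock cells. The gene Pelo lies within Itga1 on the same strand and had 701 to 1060 counts per library, beside 401 to 1174 for Itga1, so reads in the shared 1832 bases may have been assigned to either. Itga11, whose product binds fibrillar collagen, had 225, 214 and 232 CPM with Imp2 siRNA, against 171, 142 and 123 CPM in Mock cells. It rose by a log2 fold change of 0.62 (adjusted p = 0.00447, SE 0.131) without IL-17 and by 0.66 (adjusted p = 0.00324, SE 0.131) with it. With IL-17 its levels were 161, 189 and 211 CPM with Imp2 siRNA and 122, 129 and 104 CPM in Mock cells, and the groups did not overlap in either state.

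Among the other RGD-binding alpha chains, Itga8 rose and Itgav did not pass the test. Itga8 had 25.7, 20.9 and 19.7 CPM with Imp2 siRNA, against 17.0, 13.1 and 9.68 CPM in Mock cells, and the groups did not overlap. For Itga8 the log2 fold change was 0.74 (adjusted p = 4.82e-04, SE 0.123) without IL-17 and 0.76 (adjusted p = 4.85e-04, SE 0.127) with it. With IL-17 it had 16.6, 15.3 and 16.3 CPM with Imp2 siRNA, against 9.54, 9.72 and 9.14 CPM in Mock cells, again without overlap. Itgav had 291, 273 and 249 CPM with Imp2 siRNA, against 241, 273 and 227 CPM in Mock cells. Its log2 fold change was 0.13 (adjusted p = 0.266, SE 0.0870) without IL-17 and 0.20 (adjusted p = 0.103, SE 0.0870) with it. With IL-17 all 3 knockdown libraries, at 333, 267 and 269.9 CPM, lay above the Mock libraries at 245, 265 and 246 CPM, the nearest pair by a small margin.

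The laminin-binding alpha chains also differed from each other. Itga7, best known as the laminin receptor chain of muscle, had 12.7, 11.4 and 12.3 CPM with Imp2 siRNA, against 6.09, 5.65 and 4.69 CPM in Mock cells. It rose by 1.14 on the log2 scale (adjusted p = 1.49e-04, SE 0.162), or 2.21-fold, without overlap of the groups. With IL-17 it had 8.33, 9.97 and 13.8 CPM with Imp2 siRNA, against 5.70, 5.66 and 4.96 CPM in Mock cells, a log2 fold change of 0.96 (adjusted p = 5.58e-04, SE 0.162). Itga3 had 87.3, 48.6 and 52.8 CPM with Imp2 siRNA, against 65.6, 42.0 and 49.3 CPM in Mock cells, and the groups overlapped. No change was called for Itga3: its log2 fold change was 0.24 (adjusted p = 0.0896, SE 0.102) without IL-17 and 0.18 (adjusted p = 0.192, SE 0.103) with it. With IL-17 the levels of Itga3 were 76.5, 36.9 and 42.7 CPM with Imp2 siRNA and 54.2, 39.0 and 39.9 CPM in Mock cells.

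Itgb3 and Itgb5, which pair with alpha-v, did not pass the test. Itgb5 had 336, 350.2 and 371 CPM with Imp2 siRNA, against 305, 326 and 367 CPM in Mock cells, a log2 fold change of 0.086 (adjusted p = 0.323, SE 0.0630). With IL-17 it had 303, 352 and 371 CPM with Imp2 siRNA and 262, 338 and 319 CPM in Mock cells, a log2 fold change of 0.16 (adjusted p = 0.0653, SE 0.0630). Itgb3 had 42.5, 65.5 and 56.5 CPM with Imp2 siRNA, against 30.8, 90.7 and 86.1 CPM in Mock cells. The average over all libraries was a log2 fold change of -0.23 (adjusted p = 0.541, SE 0.256) without IL-17 and -0.19 (adjusted p = 0.610, SE 0.255) with it. These Itgb3 values average over opposite directions in the prefixes: the RB160 knockdown library lay above its Mock library, and both NA knockdown libraries lay below both NA Mock libraries. The same split appeared with IL-17, at 50.3, 64.4 and 59.9 CPM with Imp2 siRNA and 35.6, 96.5 and 85.4 CPM in Mock cells.

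Across the whole set, Itga1, Itga7, Itga8 and Itga11 were the subunits whose 3 knockdown libraries all lay above the 3 Mock libraries without IL-17, a pattern shown upward by 9.47% of all genes tested. With IL-17 the same 4 and Itgav showed it, beside 9.24% of all genes.

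**Figure D2:**
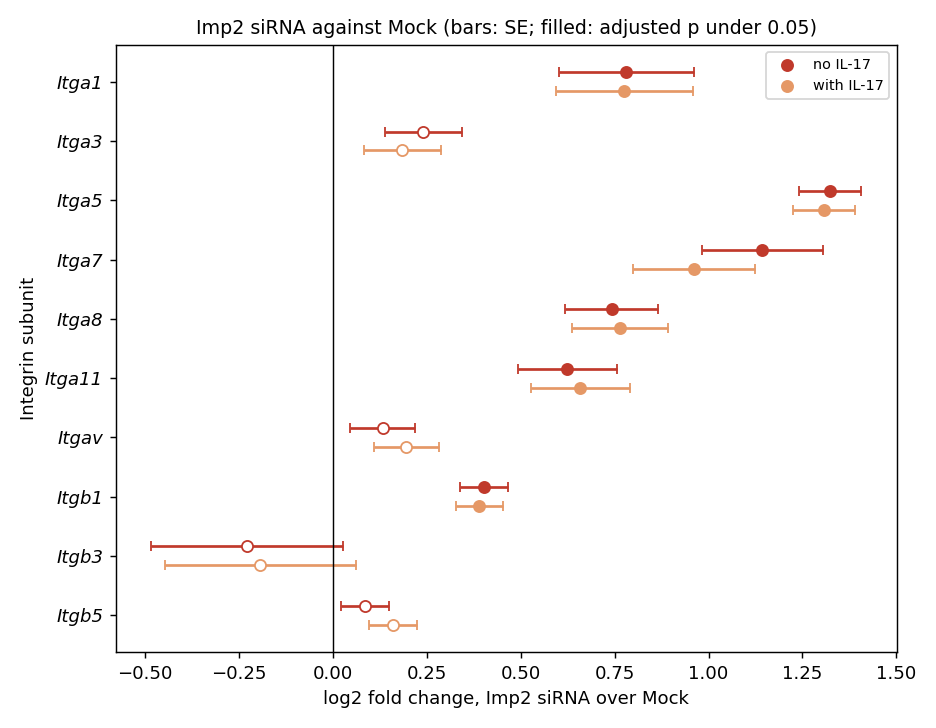
Log2 fold change of each integrin subunit, Imp2 siRNA over Mock, without IL-17 (dark) and with IL-17 (light), 3 libraries in each group; bars are SE and filled points passed an adjusted p of 0.05. The same 6 subunits are filled in both states, led by Itga5 at 1.32 and 1.31, and Itgb3 has the widest bars.

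The levels of the subunits themselves depended on the prefix, and the siRNA effect was therefore also taken within each prefix. Of the 10 subunits, 7 differed between RB160 and NA libraries, beside the 69.3% of all genes given above. The log2 difference, RB160 over NA, was -1.54 for Itga5, -0.90 for Itgb3, -0.55 for Itgb1 and -0.22 for Itgb5, whereas it was 0.68 for Itga3, 0.33 for Itga1 and 0.26 for Itga8. Itga7, Itga11 and Itgav did not pass that test. Within the RB160 libraries, 1 against 1, all 10 subunits were higher with Imp2 siRNA in both IL-17 states. Within the NA libraries, 2 against 2, 9 of 10 were higher, the exception being Itgb3. The share of all genes that were higher within a prefix was not computed, so these counts do not set the subunits apart from other genes. The fit with a separate mean for each group and prefix tested whether the siRNA effect itself differed. In it the single RB160 libraries are assumed to vary as the NA pairs do. Itgb3 differed by 0.999 (adjusted p = 0.00226, SE 0.147) without IL-17 and by 1.05 (adjusted p = 0.00102, SE 0.145) with it, RB160 minus NA. Itga1 differed by -0.72 (adjusted p = 0.0285, SE 0.155) and by -0.86 (adjusted p = 0.00801, SE 0.157), its rise being the smaller in RB160 libraries, at log2 ratios of 0.30 and 0.21 beside 0.98 and 1.02 in NA libraries. The other 8 subunits did not pass this test in either state, and 1.14% and 1.55% of all genes did. On the mean of both states, a contrast also added after the data were seen, 3 of the 10 passed, beside 6.13% of all genes: Itgb3 at 1.02, Itga1 at -0.79 and Itga3 at 0.37 (edgeR adjusted p = 0.0492). In the NA libraries alone Itgb3 fell by 0.54 on the log2 scale (edgeR adjusted p = 1.25e-04) without IL-17 and by 0.56 (adjusted p = 9.86e-05) with it.

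**Figure D3:**
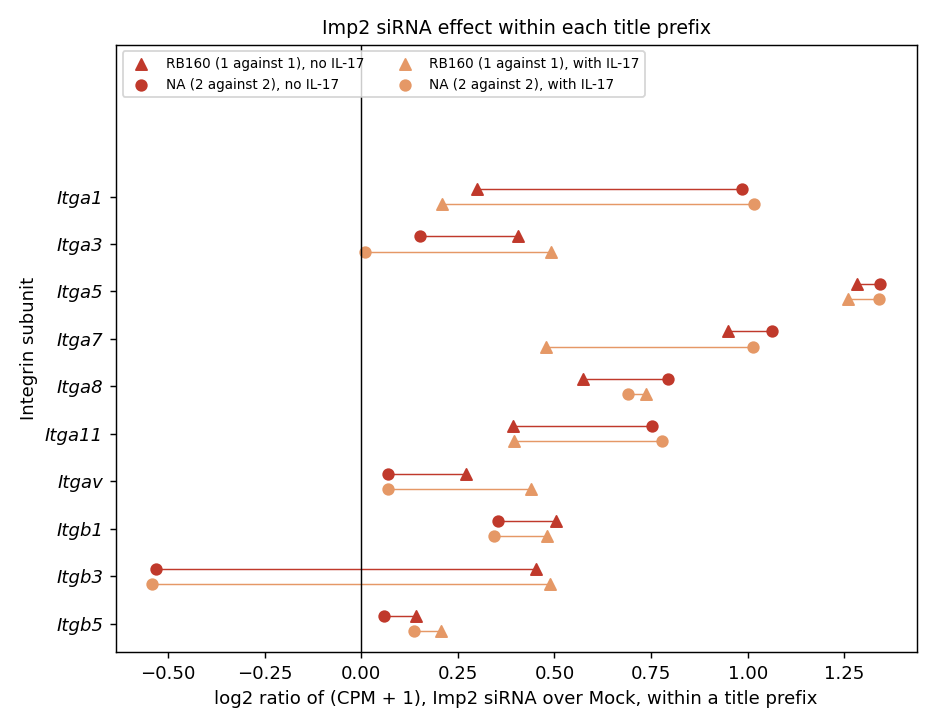
Log2 ratio of CPM + 1, Imp2 siRNA over Mock, within RB160 libraries (triangles, 1 against 1) and within NA libraries (circles, difference of the mean log2 values of 2 against 2), without IL-17 (dark) and with IL-17 (light). The symbols of Itga5 nearly coincide at 1.26 to 1.34, while those of Itgb3 lie on opposite sides of 0, at 0.45 and 0.49 against -0.53 and -0.54.

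The next comparison asks whether IL-17 itself moved the integrin subunits. IL-17 changed 0 of the 10 subunits in Imp2 siRNA cells and 0 of 10 in Mock cells, by edgeR's test, where 0.452% and 0.409% of all genes passed. At an unadjusted p under 0.05 there were 2 subunits in Imp2 siRNA cells and 3 in Mock cells, beside 7.35% and 10.8% of all genes, and DESeq2 called 0 in Imp2 siRNA cells and 1 (Itga8) in Mock cells, beside 1.25% and 1.41%. The comparisons share no library. Itga8 showed the largest difference in each: its log2 fold change was -0.46 (adjusted p = 0.180, SE 0.122) in Imp2 siRNA cells and -0.48 (adjusted p = 0.165, SE 0.128) in Mock cells. In Imp2 siRNA cells its 3 libraries with IL-17, from 15.3 to 16.6 CPM, lay below the 3 without, from 19.7 to 25.7 CPM, while in Mock cells the ranges of 9.14 to 9.72 and 9.68 to 17.0 CPM just overlapped. Without Mock replicate 3, the lowest of the Mock libraries for this gene, the values were -0.45 (adjusted p = 0.0442) and -0.63 (adjusted p = 0.0358), past the threshold in both, where 0.438% and 0.144% of all genes passed. Of the 12 fits with a library left out, this was the only 1 in which Itga8 passed, in either comparison. Itga1 and Itga11 did not overlap either in Imp2 siRNA cells, with log2 fold changes of -0.26 each, and neither passed the test. Of all genes tested, 2.41% lay lower in all IL-17 libraries of that comparison. Itga3 had -0.29 (adjusted p = 0.453) in Imp2 siRNA cells and -0.23 (adjusted p = 0.446) in Mock cells. Itga5, Itgb1, Itgav and Itgb3 lay between -0.037 and 0.12 in both.

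**Figure D4:**
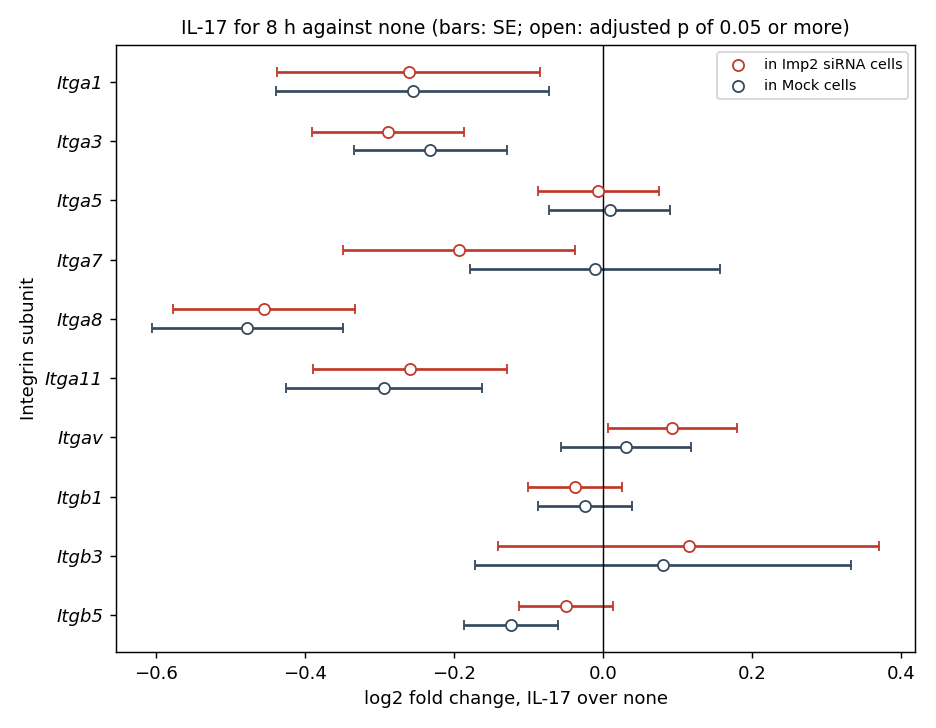
Log2 fold change of each integrin subunit with IL-17 for 8 h over none, in Imp2 siRNA cells (red) and in Mock cells (dark blue), 3 libraries in each group; bars are SE. All points are open, since none passed an adjusted p of 0.05, and Itga8 lies lowest at -0.46 and -0.48.

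Whether the knockdown altered the response to IL-17 was tested as an interaction. For the 10 subunits it ranged from -0.18 (Itga7) to 0.074 (Itgb5) on the log2 scale, and 0 of 10 passed edgeR's test. No gene of the 13702 passed (0%), with 141 at an unadjusted p under 0.05, of which 0 were integrin subunits, and DESeq2 called 0 subunits. The SE ranged from 0.0890 for Itgb5 to 0.359 for Itgb3, which sets the size of difference that could be seen. For Itga5 the interaction was -0.015 (SE 0.115).

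The proteins that join integrin tails to actin and to signalling were then described as a list of 27 symbols. Of the 26 count-table rows tested, 20 rose with Imp2 siRNA and 0 fell without IL-17, beside 16.1% of all genes called higher and 16.4% called lower, with a median log2 fold change of 0.42, and with IL-17 the counts were again 20 and 0, beside 16.7% and 16.6% of all genes, with a median of 0.49. The medians over all genes are the values near 0 given above. Lims2, an adaptor in the complex of integrin-linked kinase, had 41.0, 94.0 and 118 CPM with Imp2 siRNA, against 14.6, 21.8 and 21.3 CPM in Mock cells. Lims2 rose by a log2 fold change of 2.03 (adjusted p = 2.31e-04, SE 0.224) without IL-17 and 2.21 with it. Tns1, which links beta tails to actin filaments, rose by 1.25 in both states. Fermt2, the kindlin that activates integrins in fibroblasts, had 449, 757 and 748 CPM with Imp2 siRNA, against 275, 432 and 354 CPM in Mock cells, and rose by 0.86 without and 0.83 with IL-17. The kinase Src rose by 0.62 and 0.65. The talins Tln1 and Tln2, which bind the beta tail directly, rose by 0.41 and 0.40 without IL-17. They were not among the largest rises by which the other genes of this list were named.

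Ligands of integrins, a list that holds Vcam1 and Tgfb1 beside matrix proteins, moved in both directions. Of 27 tested, 13 rose and 6 fell with Imp2 siRNA without IL-17 (median log2 fold change 0.28), and 14 rose and 5 fell with IL-17 (median 0.21). Of all genes, 16.1% rose and 16.4% fell without IL-17, and 16.7% rose and 16.6% fell with it. Fn1, fibronectin, the ligand of alpha-5/beta-1, had 11671, 17418 and 17685 CPM with Imp2 siRNA, against 9398, 14784 and 13414 CPM in Mock cells, and rose by 0.31 in both states. Npnt, nephronectin, the ligand of alpha-8/beta-1, rose by 0.54 (adjusted p = 0.0324) and 0.58 (adjusted p = 0.0223). Col4a1 and Col4a2, the chains of basement membrane collagen, rose by 0.73 and 0.71 without IL-17 and by 0.77 and 0.76 with it. Thbs1 and Mfge8, which carry RGD motifs, rose by 0.67 and 0.66, and by 0.70 and 0.75. The largest falls were those of Spp1 (osteopontin), at -0.97 and -0.997, Vcam1, at -0.87 and -0.90, and the fibrillar collagen chain Col3a1, at -0.72 and -0.85. Edil3 was at -0.52 (adjusted p = 0.0253) without IL-17 and at -0.42 (adjusted p = 0.0639) with it. Fn1 and Npnt were picked because they are the ligands of chains that rose, after their values were seen.

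The remaining integrin genes of the mouse, 16 symbols on 17 rows, were described in the same way, and 11 rows were tested. Without IL-17, 1 rose (Itgb6, 0.95) and 2 fell (Itgb2, -1.78, and Itgb8, -1.85), and the median log2 fold change was -0.30, so that 3 of 11 were called beside 32.4% of all genes. With IL-17, Itga10 rose by 0.34 and Itga2b fell by 0.54 on the log2 scale, Itgb2 and Itgb8 fell again, at -1.90 and -2.10, which made 4 of 11 beside 33.3% of all genes, and the median was -0.28. Itgb6 was then at 0.61 (adjusted p = 0.0682). Itgb2, the leukocyte beta chain, had 12, 4 and 3 counts with Imp2 siRNA and 31, 14 and 20 counts in Mock cells. Itgb2, Itgb6 and Itgb8 had group means of at most 2.91 CPM without IL-17, and these integrin genes were named after their values were seen. Itga6, the highest of the 11 rows, was not called in either state. Without IL-17 it had a mean of 63.4 CPM with Imp2 siRNA and 58.0 CPM in Mock cells.

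**Figure D5:**
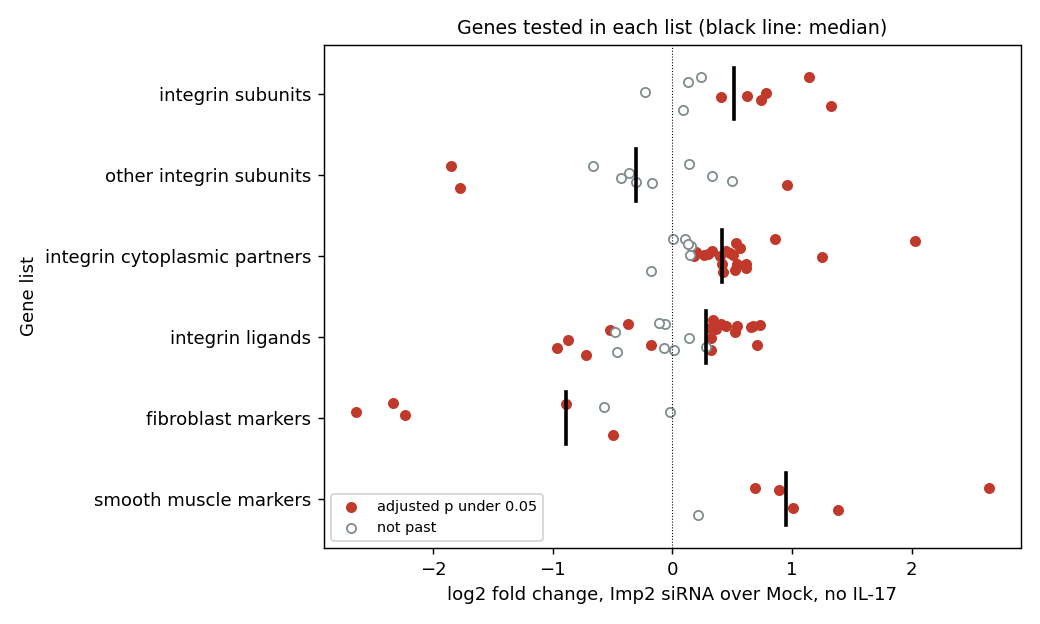
Log2 fold change, Imp2 siRNA over Mock without IL-17, of every tested gene in the integrin subunit list and in 5 related lists, spread vertically at random; red points passed an adjusted p of 0.05 and black lines are medians. The medians are 0.51 for the integrin subunits, -0.30 for other integrin subunits, 0.42 for cytoplasmic partners, 0.28 for ligands, -0.89 for fibroblast markers and 0.95 for smooth muscle markers.

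Markers of cell identity moved with the knockdown beside the integrins. Of 7 fibroblast markers, 5 fell in both IL-17 states (Pdgfra, Pdgfrb, Dcn, Lum and Prrx1), with Pdgfra at -2.23 and -2.31, while Thy1 and Vim did not pass the test. In these comparisons 16.4% and 16.6% of all genes fell, and 16.1% and 16.7% rose. The summed level of the fibroblast markers was 3330 to 3906 CPM with Imp2 siRNA and 3601 to 4323 CPM in Mock cells, and Lum was at 0 counts in 1 knockdown library. Most of that sum was Vim, at 3053 to 3371 CPM with Imp2 siRNA and 3061 to 3395 CPM in Mock cells. The sum therefore says little about the markers that fell. Prrx1, the highest of those, had a mean of 213 CPM with Imp2 siRNA and 390 CPM in Mock cells. Of 6 smooth muscle markers, 5 rose in both states (Acta2, Tagln, Cnn1, Myh11 and Smtn), with Cnn1 at 1.38 and 1.49. The summed level of the 6 was 10928 to 20383 CPM with Imp2 siRNA against 5531 to 10306 CPM in Mock cells. Most of it was Acta2, at 7408 to 13024 CPM with Imp2 siRNA and 3775 to 6465 CPM in Mock cells. With IL-17 the sum of the fibroblast markers was 2930 to 3131 CPM with Imp2 siRNA and 3240 to 3481 CPM in Mock cells, and that of the smooth muscle markers 8922 to 19139 CPM against 4143 to 9903 CPM. The part of these shifts in the integrin values was not tested. Several defining markers of other lineages were at or near 0: Myod1, Myf5 and Pax7 of skeletal muscle, Adgre1 and Tyrobp of leukocytes and Gp9 of platelets had 0 counts in all 12 libraries. Ptprc had 0 to 3 counts per library, Pecam1 0 to 4, Epcam 0 to 7 and Krt5 0 to 2. Other markers of those lists were detected: Cd14 had 142 to 450 counts per library, Cd68 83 to 158, Csf1r 32 to 119, Gp1bb 65 to 265, Krt18 3 to 81 and Cdh1 3 to 70. With Imp2 siRNA, Gp1bb rose by 0.48 and 0.38 and Krt8 by 1.72 and 2.62, without and with IL-17, and Cdh1 fell, at -1.15 and -1.25. Krt18 rose with IL-17 (1.34), Cdh5 fell without it (-1.64), and Cd14 fell with it (-0.67), and the part of these markers in the integrin values was not tested. The summed levels of the 7 skeletal muscle markers were 0.234 to 0.449 CPM with Imp2 siRNA and 0.209 to 0.476 CPM in Mock cells, and those of the 6 leukocyte markers 8.43 to 10.3 CPM and 8.04 to 14.7 CPM.

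The last comparison asks which integrin mRNAs were recovered with IMP2. The authors' deposited table lists 5294 genes whose anti-IMP2 signal exceeded IgG by a log2 value of 1 or more at an adjusted p of at most 0.05. Among them are 2 of the 10 subunits. That list holds only genes past these limits, so the share of all genes tested that passed is not known. The RNA-seq count table, made from other libraries, holds 48709 genes. In the authors' deposited table Itga5 has a log2 fold change of 1.21 (DESeq2 adjusted p = 0.0399, SE 0.524) at a mean normalised count of 2021 over the libraries. Itgb5 has a log2 fold change of 1.10 (DESeq2 adjusted p = 0.0438, SE 0.484) at a mean normalised count of 264 in the authors' deposited table. Both lie near the lower limit of the list, whose median log2 fold change is 2.16: 93.1% of the listed genes have a larger value than Itga5 and 97.0% a larger value than Itgb5. Of these 2 subunits, Itga5 rose with Imp2 siRNA and Itgb5 did not pass that test. Itga1, Itga7, Itga8, Itga11 and Itgb1, which rose as well, are not listed there, so their precipitation values are not used here. Itga5 is also among the 97 genes of another table that combines RNA-seq with RIP-seq, the authors' deposited table of shared genes, with an RNA-seq fold of 2.51, for groups that the table does not name, and no motif called.

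In the authors' deposited table there are 9 of the 27 cytoplasmic partner symbols, with log2 fold changes from 1.33 (Bcar1) to 2.74 (Lims2), and Fermt2 at 1.82, Tgfb1i1 at 2.09, Zyx at 1.84, Actn1 at 1.70, Actn4 at 1.53, Sharpin at 1.50 and Itgb1bp1 at 1.90. Lims2 rests there on a mean normalised count of 13.2. Of the 29 ligands, 3 are listed in the authors' deposited table: Mfge8 at 1.56, Spp1 at 2.68 and Tgfb1 at 2.62. None of the 16 other integrin symbols is listed. For these counts too, the share of all genes tested is not known.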

How the data were processed

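The members and gene lists were chosen with earlier results of these data known. Raw read counts per gene, as deposited, gave the RNA-seq values, and STAR, DESeq2, CASAVA 1.4 and the mm10 build are named, without a role, in the submitters' processing notes. Per the labels' protocols, Nextera XT kits served for RNA-seq and SMART-Seq v4 for RIP-seq, with strand not stated. Counts were fitted in R 4.3.3 with edgeR 4.0.16 (filterByExpr, TMM scaling, quasi-likelihood test) over all 12 libraries with a term for the title prefix, and the SE is the size of the log2 value over the root of the F statistic. Within-prefix ratios used CPM + 1. The common biological coefficient of variation over the genes tested was 7.95% and 7 residual degrees of freedom remained. Scripts were tested on simulated data. Alternatives were DESeq2 1.42.0, RLE scaling, no filter, no prefix term, each prefix alone, the compared groups alone and each library left out. Genes named from the lists were the 4 largest rises and falls past the threshold with a group mean of at least 5 CPM, unless stated. For RIP-seq, the authors deposited a DESeq2 comparison, with normalised mean counts (signal), log2 fold changes, a Wald score and p-values per the file headers, filtered at a log2 value of 1 and an adjusted p of 0.05. A second deposited table gives a signed fold, and its RIP value was 2 times the log2 value in 97 of 97 genes (tolerance 1e-06), so it was not used. Promoters are from RefSeq, GRCm38.p6.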

Additional observations from a re-analysis of the deposited data

Results flagged for a closer look

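The effect of Imp2 siRNA differed between the title prefixes for 2 of the 10 integrin subunits within an IL-17 state, and for 3 on the mean of both states, by the test of the difference itself in the fit with a mean for each group and prefix. For Itgb3 the difference, RB160 minus NA, was 1.00 on the log2 scale without IL-17 (0.999, edgeR adjusted p = 0.00226) and 1.05 with it (edgeR adjusted p = 0.00102): without IL-17 the RB160 libraries had 42.5 CPM with Imp2 siRNA and 30.8 CPM in Mock cells, and the NA libraries 65.5 and 56.5 CPM with Imp2 siRNA and 90.7 and 86.1 CPM in Mock cells. For Itga1 it was -0.72 without IL-17 (edgeR adjusted p = 0.0285) and -0.86 with it (edgeR adjusted p = 0.00801), its rise being larger in NA libraries. Each RB160 value rests on 1 library per group, and 1.14% and 1.55% of all genes passed the same test. On the mean of both states the difference was 1.02 for Itgb3 (edgeR adjusted p = 1.81e-05), -0.79 for Itga1 (edgeR adjusted p = 3.75e-04) and 0.37 for Itga3 (edgeR adjusted p = 0.0492), beside 6.13% of all genes.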

How the results depend on the processing

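The same 6 subunits remained called in both siRNA comparisons under DESeq2, RLE scaling, no filter, the compared groups alone and the NA libraries alone. Of all genes, 32.4% and 32.8%, 32.5% and 33.3%, 20.4% and 21.1%, 29.6% and 33.1%, and 31% and 31.8% passed there, without and with IL-17. The 6 also remained called in the fit with a mean for each group and prefix (added after the data were seen) and with each library left out in turn. With a library left out the counts were 6 to 7 without IL-17 and 6 to 8 with it, beside 22.8% to 33.4% and 23.8% to 34.3% of all genes. Calls were also gained: Itgb5 rose with IL-17 under DESeq2 and with the compared groups alone, Itgb3 fell in both states in the NA libraries alone and in the fit with a mean for each group and prefix, and that last fit also called Itga3 higher without IL-17 and Itgav and Itgb5 higher with it (8 and 9 calls, beside 36.6% and 37.2% of all genes). With a library left out, the gains were Itga3 and Itgav without IL-17, and Itga3, Itgav and Itgb5 with it. Without the prefix term the counts were 1 (Itga7) and 2 (Itga7 and Itga11), beside 2.21% and 2.32% of all genes. For IL-17 in Imp2 siRNA cells the count was 3 with the compared groups alone (Itga1, Itga3 and Itga8 fell), beside 2.81% of all genes, and 2 with a mean for each group and prefix (Itga3 and Itga8), beside 2.29%. For IL-17 in Mock cells it was 1 under that fit and 1 under DESeq2, Itga8 in each case (DESeq2 adjusted p = 0.0484), beside 3.12% and 1.41% of all genes, and 0 to 1 in either IL-17 comparison with a library left out. With a library left out, 0.0576% to 0.838% of all genes passed for IL-17 in Imp2 siRNA cells and 0.0434% to 0.812% in Mock cells. The interaction count was 0 under every alternative run. Small values with no call changed sign: the Itga1 interaction was 0.00015 under DESeq2, and Itga5 with IL-17 in Mock cells was -0.022 without the prefix term and -0.046 in the NA libraries alone. In the NA libraries alone the IL-17 effect on Itga7 was 0.0025 in Imp2 siRNA cells and 0.038 in Mock cells, that on Itgb5 was 0.0057 in Imp2 siRNA cells, and the interactions of Itga1, Itga8 and Itgb3 were 0.044, -0.083 and -0.013. With a library left out, the interaction ranged from -0.21 to 0.21 for Itga1, -0.13 to 0.17 for Itga11, -0.19 to 0.042 for Itga3, -0.11 to 0.047 for Itga5, -0.41 to 0.025 for Itga7, -0.13 to 0.18 for Itga8, -0.042 to 0.12 for Itgav, -0.069 to 0.034 for Itgb1 and -0.28 to 0.25 for Itgb3. The IL-17 effect in Imp2 siRNA cells ranged from -0.053 to 0.051 for Itga5, -0.42 to 0.015 for Itga7, -0.011 to 0.14 for Itgav, -0.082 to 0.0042 for Itgb1, -0.19 to 0.30 for Itgb3 and -0.086 to 0.0035 for Itgb5. In Mock cells it ranged from -0.051 to 0.11 for Itga5, -0.12 to 0.11 for Itga7, -0.029 to 0.13 for Itgav, -0.071 to 0.035 for Itgb1 and -0.14 to 0.25 for Itgb3. The cause of these changes was not tested. No paired analysis was possible because the RNA-seq titles number every library differently and so give the groups no shared replicate numbers, and for RIP-seq, whose libraries are numbered, only the authors' comparison was used. Each group has 1 RB160 and 2 NA libraries, and the lowest count of any subunit in a library was 157 (Itga7).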
